A study of Rattus norvegicus with 132 samples.

Results

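Zfp36, Zfp36l1 and Btg2 are 3 genes whose proteins promote the decay of mRNA. They were picked by symbol from the table of 9271 genes measured in rat kidney, of which 8827 passed the filter on low values and were tested, all 3 among them. They were picked with their response to injury known, so their differences between injured and Sham kidneys are given below as descriptions, with no test. The kidneys came from rats of 4 groups, with 3 animals in each per the labels: RM-HS, RM, HS and Sham. RM-HS combines both injuries, RM and HS are the single injuries of the trauma model, and Sham is the control. The labels do not expand these names. In work on trauma, HS commonly means hemorrhagic shock and RM rhabdomyolysis, in which damaged skeletal muscle breaks down. Strain, sex, age and the time after injury are not given in the sources used here. Regions of interest (ROIs) were picked by hand in cortex (C), corticomedullary junction (CMJ), glomeruli (G) and medulla (M) of fixed, paraffin-embedded sections, and the barcodes of hybridised probes were collected from each with the GeoMx profiler and sequenced. The probes were designed for the mouse transcriptome, so that a level also depends on how well a mouse probe binds the rat mRNA, and levels of different genes are not compared.

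Zfp36, also called tristetraprolin, is the founding member of a family of zinc-finger proteins that bind AU-rich elements in mRNAs and recruit the Cnot deadenylase complex, which shortens the poly(A) tail and so starts decay. It is best known for limiting the mRNA of the inflammatory cytokine Tnf. Zfp36l1 is its paralogue and binds the same kind of element. Btg2 belongs to the Btg and Tob family of antiproliferative proteins, binds the deadenylase subunit Cnot7 directly, and is a known target of the transcription factor p53. Zfp36 and Btg2 are also classed as immediate early genes, whose transcription starts within minutes of a stimulus without new protein synthesis.

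The promoters are shown to set the upstream elements of the 3 genes side by side. The 250 bases before each RefSeq transcription start in the rat assembly GRCr8 are chr1:92799109-92799358 for Zfp36, chr6:104668691-104668940 for Zfp36l1 and chr13:48087691-48087940 for Btg2, each on the minus strand and printed 5′ to 3′ along the gene. Capitals mark motif matches on either strand.
Zfp36: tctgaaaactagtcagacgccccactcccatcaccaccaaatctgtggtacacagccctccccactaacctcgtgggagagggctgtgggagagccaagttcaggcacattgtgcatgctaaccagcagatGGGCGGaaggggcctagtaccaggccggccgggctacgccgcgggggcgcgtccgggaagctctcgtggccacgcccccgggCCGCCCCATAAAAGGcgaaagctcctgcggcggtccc
Zfp36l1: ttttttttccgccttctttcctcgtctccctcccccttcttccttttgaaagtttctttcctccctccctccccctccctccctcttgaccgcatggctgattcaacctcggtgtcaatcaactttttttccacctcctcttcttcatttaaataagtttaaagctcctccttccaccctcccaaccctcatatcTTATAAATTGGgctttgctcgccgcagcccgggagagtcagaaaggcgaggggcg
Btg2: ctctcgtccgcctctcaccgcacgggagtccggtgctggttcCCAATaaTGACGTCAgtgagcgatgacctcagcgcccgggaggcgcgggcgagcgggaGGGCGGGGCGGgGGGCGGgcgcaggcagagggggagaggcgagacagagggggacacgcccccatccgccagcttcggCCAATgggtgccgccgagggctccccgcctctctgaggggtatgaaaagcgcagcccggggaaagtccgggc
The motifs searched were the CArG box, bound by serum response factor, TGACGTCA, the full cyclic AMP response element, TGAGTCA, the AP-1 element, and 3 general elements. These were TATAA, known as the core of the TATA box, CCAAT, the site of the nuclear factor Y complex, and GGGCGG, the site of Sp1 and related factors. Zfp36 held a CArG box at bases 32 to 23 before the start, an element found in 1.5% of 33469 RefSeq promoter windows of the same length. Its GGGCGG matches lay at bases 119 to 114 and 37 to 32, the second sharing 1 base with the CArG box. Btg2 held the full cyclic AMP response element at bases 201 to 194, which 1.59% of windows hold. Btg2 also held CCAAT at bases 208 to 204 and 72 to 68, and overlapping GGGCGG matches between bases 150 and 133. Zfp36l1 held neither of the rarer elements, but had overlapping TATAA matches on both strands at bases 55 to 50 and CCAAT at bases 49 to 45. No window of the 3 held TGAGTCA, present in 4.05% of windows. The general elements were common: 24% of windows hold TATAA, 34% hold CCAAT and 30.5% hold GGGCGG. GC content was 65.2% for Zfp36, 50.4% for Zfp36l1 and 72% for Btg2. These are matches of letters and not measured binding.

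**Figure D1:**
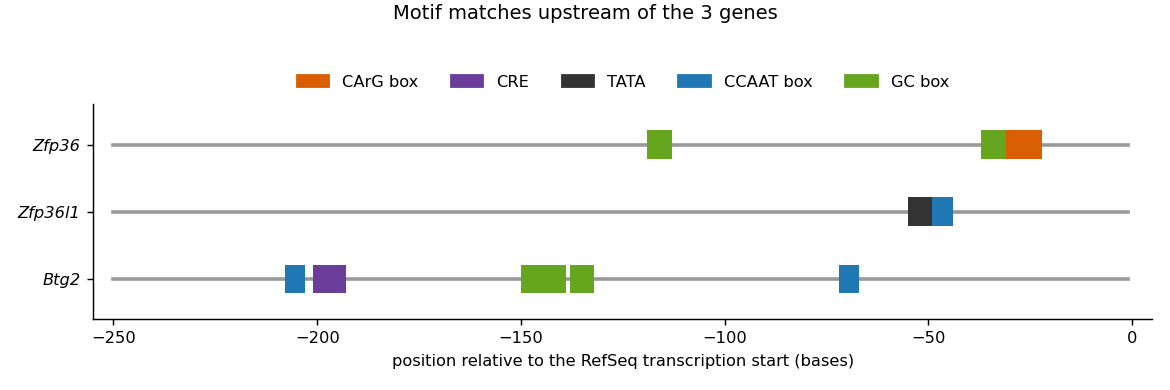
Positions of motif matches in the 250 bases before the RefSeq start of Zfp36, Zfp36l1 and Btg2 (rat assembly GRCr8); the horizontal axis is the distance from the start in bases, and each box is a match on either strand. The CArG box lies in Zfp36 only and the full cyclic AMP response element (CRE) in Btg2 only, among these 3 windows.

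The deposited values are signal scaled by the authors to a common upper quartile (Q3) of 58.1573 in each of 132 ROIs. Recovered reads ranged from 17894 to 2305964 per ROI, with a median of 1309721 in medulla, 1144390 at the junction, 819487 in cortex and 93104 in glomeruli. The fit held 131 ROIs: 32 of RM-HS, 34 of RM, 29 of HS and 36 of Sham. 1 further RM glomerular ROI, alone on plate A, was left out. The RM-HS and RM ROIs in the fit and 24 Sham ROIs were on plate C, while every HS ROI was on plate E with 12 Sham ROIs. Differences come from limma on log2(signal + 1) with a plate term and the run of neighbouring wells as a random block, and genes with an adjusted p under 0.05 over all 8827 genes were called. For each gene, all 16 combinations of group and area share 1 estimate of the spread. An SE is therefore too small where the ROIs scatter more than that. Which ROIs share an animal is not given in the labels. A group and area can hold 9 ROIs from 3 rats, and every p-value over ROIs printed here is therefore too small. Most area markers stood where the labels put them within Sham, compared with cortex: 4 of 5 podocyte markers were higher in glomeruli (2.78% of all genes were) while the fifth, Podxl, was lower, and 3 of 4 loop of Henle and 2 of 2 collecting duct markers were higher in medulla (6.39% of all genes). Proximal tubule markers were lower in 7 of 8 cases in glomeruli (35.6% of all genes) and in 6 of 8 in medulla (5.28% of all genes), where Aqp1 was higher.

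Signal of Zfp36 and Btg2 lay nearer to the negative probe in Sham than in injured kidneys, though Btg2 in HS was close to Sham. The median ratio of Btg2 to the negative probe was 4.54 in HS and 3.87 in Sham. For Zfp36l1 it was lower in HS (9.28) than in Sham (11.2). Zfp36 was over 2 times the negative-probe value in 32 of 32 RM-HS, 34 of 34 RM, 29 of 29 HS and 31 of 36 Sham ROIs. Btg2 passed that mark in 34 of 36 Sham ROIs, Zfp36l1 in 36 of 36, and both in every ROI of the other groups. The lowest Sham values of Zfp36 and Btg2 rested on 1 recovered read each, and the fewest reads behind any Sham value of Zfp36l1 were 10. In HS the fewest reads were 4 for Zfp36, 7 for Zfp36l1 and 6 for Btg2.

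In Sham kidneys, Zfp36 signal in the other areas was not called different from cortex. Its median (lowest to highest) was 64.8 (54.6 to 97.8) in medulla, 61.3 (55.0 to 76.3) at the junction and 45.7 (29.1 to 81.4) in glomeruli, against 56.4 (40.7 to 80.4) in cortex (n = 9 ROIs each). The log2 differences from cortex were 0.23 ± 0.14 (SE) in medulla (limma adjusted p = 0.345), 0.18 ± 0.14 at the junction (adjusted p = 0.609) and −0.28 ± 0.14 in glomeruli (adjusted p = 0.109). None passed the threshold, and the ranges of neighbouring areas overlapped. With the negative-probe value subtracted the differences were 0.74 in medulla, 0.50 at the junction and −0.42 in glomeruli, still short of the threshold. Over all genes the median difference in glomeruli was −0.27. Among all genes, 6.94% were called higher and 0.963% lower at the junction than in cortex.

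Zfp36 was higher than Sham in every RM-HS and RM ROI of every area. In cortex its signal was 167 (129 to 245) in RM-HS, 223 (139 to 285) in RM, 100.5 (55.1 to 121) in HS and 56.4 (40.7 to 80.4) in Sham (median, lowest to highest). At the junction it was 359 (272 to 482) in RM-HS, 278 (184 to 453) in RM, 99.9 (59.8 to 116) in HS and 61.3 (55.0 to 76.3) in Sham. In medulla it was 387 (335 to 488) in RM-HS, 293 (199 to 337) in RM, 104 (65.9 to 161) in HS and 64.8 (54.6 to 97.8) in Sham. In each of these areas the lowest RM-HS and RM values lay above the highest Sham value, while HS overlapped Sham. In glomeruli Zfp36 was 134 (93.7 to 179.8) in RM-HS, 199 (104 to 227) in RM and 45.7 (29.1 to 81.4) in Sham. The 5 HS glomerular ROIs read 46.5, 48.5, 58.2, 84.0 and 134, so that 2 of 5 were above the highest Sham ROI.

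Counted over areas, Zfp36 lay above the highest Sham ROI of the same area in 32 of 32 RM-HS, 34 of 34 RM and 18 of 29 HS ROIs. The genes for which every ROI of the injury lay above every Sham ROI made up, for RM-HS, 4.01% of genes in medulla, 4.64% at the junction, 1.11% in cortex and 0.227% in glomeruli. For RM they made up 4.66%, 5.09%, 2.06% and 0.6% in the same order, and for HS 0.227%, 0.521%, 0.113% and 0.068%. Nothing is read from these shares about the 3 genes, which were picked from the same contrasts.

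The fitted log2 difference of Zfp36 from Sham, averaged over areas, was 2.10 ± 0.14 in RM-HS (4.29-fold), 2.07 ± 0.14 in RM (4.21-fold) and 0.41 ± 0.17 in HS (1.33-fold). Among all 8827 genes it ranked 6 from the highest difference in RM-HS, 5 in RM and 118 in HS. The RM-HS difference was 2.58 ± 0.18 in medulla, 2.56 ± 0.19 at the junction, 1.71 ± 0.18 in cortex and 1.56 ± 0.20 in glomeruli. The RM difference varied less, at 2.15 ± 0.18 in medulla, 2.26 ± 0.19 at the junction, 1.88 ± 0.18 in cortex and 2.01 ± 0.19 in glomeruli. The HS difference was 0.53 ± 0.23 in medulla, 0.37 ± 0.21 at the junction, 0.37 ± 0.21 in cortex and 0.37 ± 0.23 in glomeruli. Within RM-HS, the difference was thus larger in medulla than in glomeruli, by 1.02 ± 0.22, and larger at the junction than in cortex, by 0.84 ± 0.21. With the negative-probe value subtracted the average differences were 2.73 in RM-HS, 2.73 in RM and 0.84 in HS.

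The well runs, 3 in each group, gave the same order for Zfp36. Mean log2 signal over areas was 7.60, 8.13 and 7.97 in the RM-HS runs and 8.002, 7.68 and 7.97 in the RM runs. It was 6.55, 6.05 and 6.74 in the HS runs, against 5.85, 5.75 and 6.08 in the Sham runs. The 6 HS medulla ROIs were all of HS runs 1 and 2. The mean of HS run 3 is thus over 3 areas, and those of the other runs over 4, so that it is not strictly alike. Every RM-HS and RM run lay above every Sham run, and HS run 2 lay just below Sham run 3, the Sham run on the plate that held HS. HS is set against that run through the plate term, so that its fitted differences need not equal the gaps between the medians given above. Without Sham run 3, where the plate term drops out, the HS difference was 0.68 in place of 0.41. Without HS run 2 it was 0.67 and without HS run 3 it was 0.22.

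**Figure D2:**
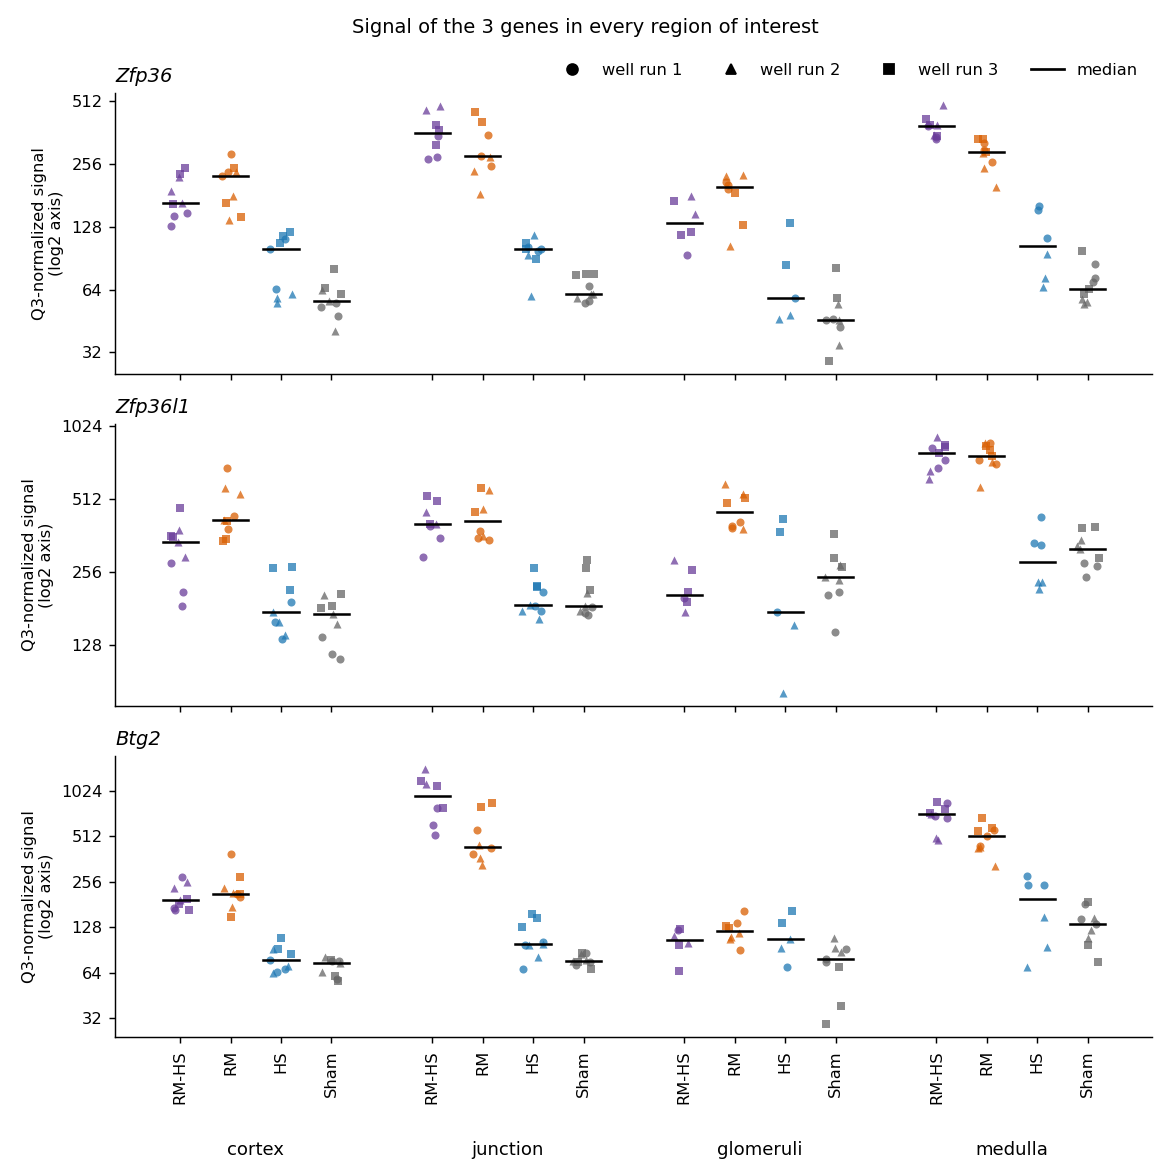
Q3-normalized signal (log2 axis) of Zfp36, Zfp36l1 and Btg2 in each of the 131 ROIs of the fit, by kidney area and group; symbols give the well run (1 to 3) within the group and black bars the median. Zfp36 in RM-HS and RM lies above every Sham ROI in all 4 areas, while Zfp36l1 in RM-HS glomeruli and Btg2 in glomeruli overlap Sham.

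Zfp36l1, the paralogue, differed between areas of Sham. Its median (lowest to highest) was 319 (244 to 393) in medulla, 185 (169.5 to 287) at the junction and 245 (145 to 368) in glomeruli, against 171 (112 to 208) in cortex (n = 9 ROIs each). It was higher in medulla by 0.96 ± 0.13 on the log2 scale (limma adjusted p = 4.07e-09, 9 of 9 ROIs above the cortex mean). It was also higher in glomeruli, by 0.59 ± 0.13 (limma adjusted p = 0.000227, 8 of 9 ROIs), but with values averaged within each well run this p was 0.0651. At the junction the difference of 0.34 ± 0.13 missed the threshold (limma adjusted p = 0.119) and reached it without the 6 ROIs under 50000 reads (adjusted p = 0.0354). Under quantile normalization the junction value was −0.17.

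Zfp36l1 was higher than Sham in RM in all 4 areas, and in RM-HS at the junction and in medulla with no overlap. In cortex its signal was 339 (186 to 470.0) in RM-HS, 418 (344 to 687) in RM, 174 (136 to 268) in HS and 171 (112 to 208) in Sham. At the junction it was 403 (295 to 527) in RM-HS, 414 (346 to 566) in RM, 187 (163 to 267) in HS and 185 (169.5 to 287) in Sham. In medulla it was 791 (617 to 919) in RM-HS, 769 (575 to 869) in RM, 282 (217 to 430.4) in HS and 319 (244 to 393) in Sham. RM-HS and RM were close at the junction and in medulla, and in cortex 8 of 9 RM-HS ROIs lay above the highest Sham ROI. The glomeruli stood apart: Zfp36l1 was 206 (174 to 285) in RM-HS, 451 (386 to 587) in RM and 245 (145 to 368) in Sham. Thus 8 of 8 RM glomerular ROIs and 0 of 6 RM-HS glomerular ROIs lay above the highest Sham ROI. The 5 HS glomerular ROIs read 81.4, 155, 174, 375 and 425, a wider spread than in any other group and area of this gene relative to its median.

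Over areas, Zfp36l1 lay above the highest Sham ROI in 25 of 32 RM-HS, 34 of 34 RM and 6 of 29 HS ROIs. Its average log2 difference from Sham was 0.89 ± 0.13 in RM-HS (1.86-fold), 1.32 ± 0.13 in RM (2.50-fold) and −0.29 ± 0.16 in HS (0.818-fold). In RM-HS the difference was 1.42 ± 0.17 in medulla, 1.15 ± 0.17 at the junction, 1.07 ± 0.17 in cortex and −0.06 ± 0.18 in glomeruli. In RM it was 1.41 ± 0.17 in medulla, 1.20 ± 0.17 at the junction, 1.61 ± 0.17 in cortex and 1.05 ± 0.17 in glomeruli. The RM-HS difference in glomeruli was smaller than that in medulla by 1.48 ± 0.20. In HS it was −0.26 ± 0.21 in medulla, −0.30 ± 0.20 at the junction, −0.07 ± 0.20 in cortex and −0.52 ± 0.22 in glomeruli. The SD of log2 signal between ROIs was 0.98 in HS glomeruli and 0.22 at the HS junction. With a shared spread, the SE printed for HS glomeruli is too small.

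The size of the Zfp36l1 differences depended on scaling, and in HS their sign depended on which ROIs entered. Quantile normalization gave 0.45 for RM-HS and 0.79 for RM, lower than under Q3 scaling by over 1.5 times, with the direction kept. In glomeruli it gave −0.36 in RM-HS and 0.50 in RM. In HS the average turned to 0.12 without Sham run 3, and the glomerular value to 0.32 without ROIs under 50000 reads and to near 0 without HS run 2. Mean log2 signal over areas was 8.36, 8.61 and 8.75 in the RM-HS runs and 8.91, 9.06 and 9.04 in the RM runs. It was 7.72, 7.36 and 8.17 in the HS runs (run 3 without medulla, where Sham signal was highest), against 7.50, 7.85 and 8.08 in the Sham runs. Every RM-HS and RM run lay above every Sham run, while the HS runs straddled the Sham runs.

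Btg2, the antiproliferative partner of the deadenylase, was higher in medulla than in cortex of Sham. Its median (lowest to highest) in Sham was 134 (75.5 to 187) in medulla, 76.9 (67.7 to 86.8) at the junction and 79.3 (29.1 to 108) in glomeruli, against 73.7 (56.7 to 80.8) in cortex (n = 9 ROIs each). The medulla difference was 0.90 ± 0.17 (limma adjusted p = 1.44e-05, 9 of 9 ROIs above the cortex mean). The junction, at 0.17 ± 0.17 (limma adjusted p = 0.674), and glomeruli, at 0.02 ± 0.17 (adjusted p = 0.947), missed the threshold. Their SEs rest on the shared spread, though the SD of log2 signal was 0.62 in Sham glomeruli and 0.12 at the junction.

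In RM-HS and RM, Btg2 differed from Sham most at the junction and least in glomeruli. At the junction its signal was 942 (524 to 1428) in RM-HS, 436 (328 to 843) in RM, 98.4 (67.6 to 156) in HS and 76.9 (67.7 to 86.8) in Sham. In medulla it was 715 (479 to 855) in RM-HS, 515 (327 to 678) in RM, 196 (69.8 to 279) in HS and 134 (75.5 to 187) in Sham. In cortex it was 194 (166 to 275) in RM-HS, 213 (150.4 to 388) in RM, 77.5 (63.4 to 109) in HS and 73.7 (56.7 to 80.8) in Sham. In these 3 areas every RM-HS and RM ROI lay above every Sham ROI, and HS overlapped Sham. In glomeruli Btg2 was 106 (65.4 to 124) in RM-HS, 121 (90.5 to 164) in RM and 79.3 (29.1 to 108) in Sham. There 3 of 6 RM-HS and 6 of 8 RM ROIs lay above the highest Sham ROI. The 5 HS glomerular ROIs read 69.8, 93.1, 107, 136 and 163, with 2 of 5 above it.

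Over areas, Btg2 lay above the highest Sham ROI in 29 of 32 RM-HS, 32 of 34 RM and 16 of 29 HS ROIs. Its average log2 difference from Sham was 1.86 ± 0.16 in RM-HS (3.64-fold), 1.64 ± 0.16 in RM (3.11-fold) and 0.67 ± 0.20 in HS (1.59-fold). In RM-HS the difference reached 3.39 ± 0.22 at the junction (10.5-fold) and was 2.27 ± 0.21 in medulla, 1.41 ± 0.21 in cortex and 0.39 ± 0.23 in glomeruli. In RM it was 2.53 ± 0.22 at the junction (5.78-fold), 1.80 ± 0.21 in medulla, 1.54 ± 0.21 in cortex and 0.68 ± 0.22 in glomeruli. Glomeruli minus junction gave −2.99 ± 0.25 in RM-HS and −1.85 ± 0.24 in RM, the widest gaps between areas among the 3 genes. Btg2 ranked 4 from the highest difference at the junction in RM-HS and 8 in RM, but 1388 and 515 in glomeruli.

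In HS, Btg2 differed from Sham by 0.66 ± 0.26 in medulla, 0.68 ± 0.24 at the junction, 0.45 ± 0.24 in cortex and 0.89 ± 0.27 in glomeruli. These differences rested on few runs: without Sham run 3 the HS average was 0.29 and the glomerular difference 0.29. Without HS run 1 the medulla difference was 0.02, and without HS run 2 it was 1.39. Mean log2 signal over areas was 8.35, 8.50 and 8.41 in the RM-HS runs and 8.20, 7.92 and 8.40 in the RM runs. It was 6.69, 6.52 and 6.99 in the HS runs (run 3 without medulla, where Sham signal was highest), against 6.52, 6.53 and 6.14 in the Sham runs. The RM-HS and RM runs lay above every HS and Sham run, and HS run 2 was level with Sham runs 1 and 2. With the negative-probe value subtracted the HS average was 1.22. Btg2 also followed depth: within groups its log2 signal correlated with log2 reads at r = 0.52 over 131 ROIs, against 0.23 for Zfp36 and 0.12 for Zfp36l1. The part of depth in the Btg2 differences was not tested.

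**Figure D3:**
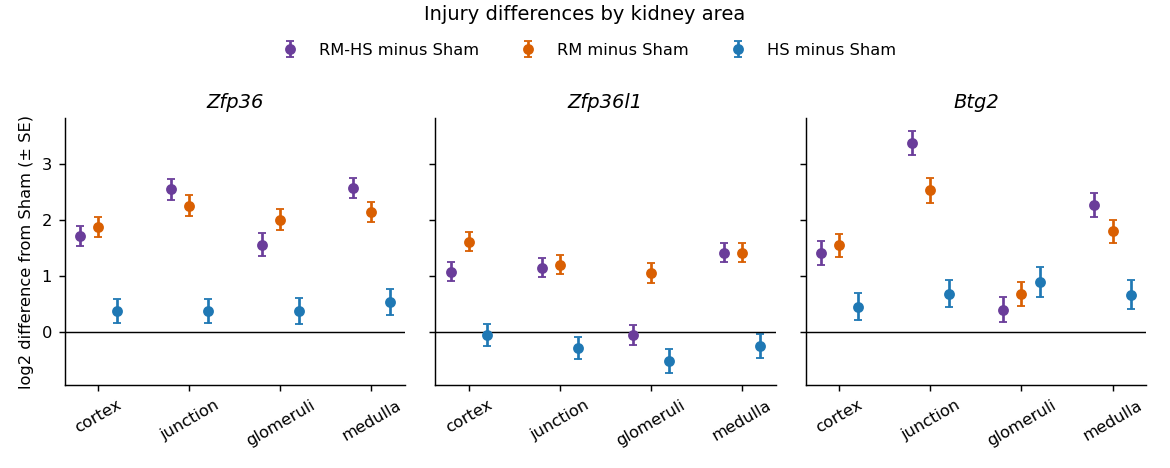
Log2 difference of each injury from Sham (points, with SE bars) for Zfp36, Zfp36l1 and Btg2 in cortex, junction, glomeruli and medulla, from the limma fit of 131 ROIs. Btg2 peaks at the junction (3.39 in RM-HS and 2.53 in RM), and Zfp36l1 in RM-HS glomeruli (−0.06) lies at the Sham level.

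Ordered over all 16 combinations of group and area, the medians of the 3 genes fell into different orders. Zfp36 was highest in RM-HS medulla, RM-HS junction, RM medulla and RM junction, and its lowest medians were in Sham glomeruli, Sham cortex and HS glomeruli. Zfp36l1 was highest in RM-HS medulla and RM medulla, then in RM glomeruli, RM cortex and RM junction, and lowest in Sham cortex. Btg2 was highest at the RM-HS junction, then in RM-HS medulla, RM medulla and RM junction, and lowest in Sham cortex. For each gene the ranges of every pair of neighbours in this order overlapped, so that no neighbours were separate.

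RM-HS was set beside RM to describe what the combined injury added. Zfp36 averaged 0.03 ± 0.12 higher in RM-HS than in RM, with 0.43 ± 0.17 in medulla and −0.45 ± 0.19 in glomeruli. Zfp36l1 averaged −0.43 ± 0.12, with −1.12 ± 0.18 in glomeruli (0.461-fold), −0.54 ± 0.16 in cortex, 0.00 ± 0.16 in medulla and −0.05 ± 0.17 at the junction. Its 6 RM-HS glomerular ROIs, up to 285, lay below all 8 RM glomerular ROIs, from 386. Btg2 averaged 0.23 ± 0.14, with 0.86 ± 0.21 at the junction (1.81-fold), 0.47 ± 0.20 in medulla, −0.14 ± 0.20 in cortex and −0.28 ± 0.22 in glomeruli. All 3 genes were thus lower in RM-HS than in RM in glomeruli by point estimate, the difference being several times its SE for Zfp36l1. RM-HS exceeded HS on average by 1.69 ± 0.22 for Zfp36, 1.18 ± 0.21 for Zfp36l1 and 1.20 ± 0.26 for Btg2. In glomeruli that comparison was 1.19 ± 0.28, 0.46 ± 0.26 and −0.50 ± 0.32 in the same order of genes. The Zfp36l1 average was 0.77 under quantile normalization and 0.77 with no plate term.

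Correlations between the 3 genes describe how far their levels followed each other. Over the 16 means of group and area, Pearson's r was 0.92 between Zfp36 and Btg2, 0.83 between Zfp36 and Zfp36l1 and 0.83 between Zfp36l1 and Btg2. These points share the injury contrast by which the genes were picked. Among all other genes, Btg2 ranked 15 in likeness to Zfp36 and Zfp36l1 ranked 85, while Zfp36 and Btg2 ranked 52 and 54 in likeness to Zfp36l1. Within groups and areas, over 131 ROIs, r was 0.50, 0.56 and 0.34 in the same order, on ROIs that share sections, plates and depth. By the same measure over the 16 means, the genes most like Zfp36 were Klf6 (0.95), Shb (0.94), Sbno2 (0.94), Gspt1 (0.93) and Sfpq (0.93). Those most like Zfp36l1 were Junb (0.95), Med13l (0.94), Casc3 (0.91), Spp1 (0.91) and Rhoq (0.91). Those most like Btg2 were Gspt1 (0.94), Klf6 (0.93), Efna1 (0.93), Tgif1 (0.92) and Cdkn1a (0.92). Klf6, a zinc-finger transcription factor, and Gspt1, a translation termination factor, stood in the lists of both Zfp36 and Btg2, while Zfp36l1 shared none of its 5 with them. Junb is a subunit of AP-1, Spp1 encodes osteopontin, and Cdkn1a encodes the cell cycle inhibitor p21.

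Of the other members of the Zfp36 and the Btg and Tob families, 5 of 7 were measured and 3 passed the filter on low values. In RM, 2 of 3 rose (7.52% of all genes rose and 0.782% fell in RM), in RM-HS 1 of 3 (5.99% rose and 0.838% fell), and in HS none (0.125% rose and 0.0453% fell). Btg1, an antiproliferative relative of Btg2, rose by 1.15 ± 0.14 in RM-HS (limma adjusted p = 1.35e-11) and 1.12 ± 0.14 in RM (1.84e-11), and its HS difference was 0.38 ± 0.17 (0.854). Unlike that of Btg2, the Btg1 difference was not clearly lower in glomeruli than at the junction. In RM-HS it was 1.08 ± 0.20 in glomeruli and 1.09 ± 0.19 at the junction. In RM it was 1.27 ± 0.19 in glomeruli and 0.82 ± 0.19 at the junction, where Btg2 had 0.68 and 2.53. Whether that gap between the genes exceeded error was not tested. Zfp36l2, the other widely expressed paralogue of Zfp36, rose by 0.70 ± 0.12 in RM (limma adjusted p = 2.71e-06). In RM-HS its difference was 0.33 ± 0.12 (limma adjusted p = 0.109). Tob1, another antiproliferative family member, had −0.29 ± 0.16 in RM-HS (limma adjusted p = 0.384) and −0.34 ± 0.16 in RM (0.201). In medulla alone Tob1 fell by 0.76 ± 0.22 in RM-HS (limma adjusted p = 0.0170) and by 0.89 ± 0.22 in RM (0.00198). Zfp36l3 and Btg3 were over 2 times the negative probe in 10 and 13 of 132 ROIs and were not tested.

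The deadenylation machinery through which these proteins act is represented by 9 tested genes. Of these, 2 rose in RM-HS (5.99% of all genes rose) and 2 in RM (7.52% of all genes), and none fell: both were the poly(A)-binding proteins Pabpc1 and Pabpc4. Pabpc1 rose by 0.73 ± 0.14 in RM-HS (limma adjusted p = 2.29e-05) and 1.11 ± 0.14 in RM (3.72e-11). Pabpc4 rose by 0.55 ± 0.14 in RM-HS (limma adjusted p = 0.00232) and 0.47 ± 0.13 in RM (0.00989). Without Sham run 1, the Pabpc1 call in RM held and the other 3 did not. None of the other 7, 6 Cnot genes and Pan2, passed the threshold in either injury. The list's median difference was 0.07 in RM-HS and 0.07 in RM, beside −0.02 and −0.06 over all genes. Of 19 genes of decapping and exonucleases, 1 rose and 1 fell in each of RM-HS and RM. Among all genes, 5.99% rose and 0.838% fell in RM-HS, and 7.52% rose and 0.782% fell in RM. Pnrc1, which links decapping factors, rose by 0.76 ± 0.14 in RM-HS (limma adjusted p = 2.62e-05) and 0.62 ± 0.14 in RM (0.000787). Its RM call was lost without Sham run 1 and with means of well runs, while its RM-HS call held in every alternative. Exosc8, an exosome subunit, fell by 0.43 ± 0.14 in RM-HS (limma adjusted p = 0.0391) and 0.40 ± 0.14 in RM (0.0492), a call lost in 8 and 9 of the 12 fits that left out 1 well run. The list's median was −0.05 in RM-HS and −0.05 in RM.

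Among 13 other RNA-binding regulators of decay, 1 rose in RM-HS (5.99% of all genes rose) and 5 in RM (7.52%). Upf1, the helicase of nonsense-mediated decay, rose by 0.48 ± 0.13 in RM-HS (limma adjusted p = 0.00823) and 0.47 ± 0.13 in RM (0.00774). Khsrp, which like Zfp36 promotes the decay of AU-rich mRNAs, rose by 0.66 ± 0.14 in RM (limma adjusted p = 0.000116), and Celf1 by 0.44 ± 0.13 (0.0130). None of these 4 calls held without Sham run 1. Together, 44 tested genes of these 4 lists held 5 rises and 1 fall in RM-HS, 10 rises and 1 fall in RM and no call in HS. In HS, 1 of the 44 had an unadjusted limma p under 0.05, and edgeR on recovered reads called 0. The share of rises was 11.4% in RM-HS, beside 5.99% of all genes, and 22.7% in RM, beside 7.52% of all genes. The median difference of the 44 genes was 0.06 in RM-HS, beside −0.02 over all genes, and 0.05 in RM, beside −0.06. Without Sham run 1 the calls numbered 2 in RM-HS and 3 in RM, and with means of well runs 5 in RM.

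Genes of the p38 kinase pathway and binding partners of Zfp36, which control its activity through phosphorylation, rose in 7 of 12 cases in RM-HS (5.99% of all genes rose) and 8 of 12 in RM (7.52%). Mapk14, the main p38 kinase, rose by 0.95 ± 0.12 in RM-HS (limma adjusted p = 5.33e-10) and 1.18 ± 0.12 in RM (2.24e-14). Mapkapk2, the kinase that phosphorylates Zfp36, rose by 0.42 ± 0.11 in RM-HS (limma adjusted p = 0.00643) and 0.73 ± 0.11 in RM (4.66e-08). Ywhae, an adaptor that binds phosphorylated proteins, rose by 0.50 ± 0.16 in RM-HS (limma adjusted p = 0.0314) and 0.82 ± 0.16 in RM (2.22e-05). Without Sham run 1 the list had 1 call in RM-HS, that of Mapk14, and 3 calls in RM. The Mapkapk2 call in RM-HS and both Ywhae calls were thus lost there. Dusp1, the phosphatase that switches p38 off, rose by 0.56 ± 0.13 in RM-HS (limma adjusted p = 0.00136) and 0.58 ± 0.13 in RM (0.000536). In HS it rose by 0.80 ± 0.17 (limma adjusted p = 0.00551), the single call of 12 there (0.125% of all genes rose). Within plate E alone the HS value of Dusp1 was 0.80 (limma adjusted p = 0.900), and the RM-HS call was lost without RM-HS run 3 and without Sham run 1.

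Of mRNAs described as targets of the Zfp36 family, 10 of 21 were measured and 9 tested, and none of the 9 fell in any injury. Among all genes, 0.838% fell in RM-HS, 0.782% in RM and 0.0453% in HS. At such shares a list of 9 would rarely hold a fall, so nothing is read from its absence. In RM-HS 3 of 9 rose (5.99% of all genes rose) and in RM 2 of 9 (7.52%). Myc, a growth transcription factor, rose by 1.21 ± 0.16 in RM-HS (limma adjusted p = 6.22e-10) and 1.58 ± 0.16 in RM (1.77e-15). Ier3, a stress-induced survival gene, rose by 0.99 ± 0.13 in RM-HS (limma adjusted p = 1.90e-10) and 1.10 ± 0.13 in RM (1.35e-12). Plau, which encodes urokinase, rose by 0.76 ± 0.20 in RM-HS (limma adjusted p = 0.00517), a call lost without RM-HS run 3 and without Sham run 1. The list's median was 0.06 in RM-HS and 0.17 in RM. Tnf, named here outside the rule as the best known target, had −0.23 ± 0.17 in RM-HS (limma adjusted p = 0.572), −0.23 ± 0.17 in RM (0.426) and −0.06 ± 0.21 in HS (0.999), none past the threshold.

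Of 6 tested p53 targets other than Btg2, 2 rose in RM-HS (5.99% of all genes rose) and 2 in RM (7.52%). Gadd45a, a growth arrest gene, rose by 2.21 ± 0.16 in RM-HS (limma adjusted p = 5.15e-25) and 1.70 ± 0.16 in RM (2.22e-17). Cdkn1a rose by 0.67 ± 0.13 in RM-HS (limma adjusted p = 1.89e-05) and 0.66 ± 0.12 in RM (1.42e-05). The other 4 missed the threshold, and the median was 0.18 in RM-HS and 0.13 in RM. Of 21 immediate early genes, 14 rose in RM-HS (5.99% of all genes rose), 13 in RM (7.52%) and 1 in HS (0.125%), and none fell. Klf6 rose by 1.81 ± 0.15 in RM-HS (limma adjusted p = 1.54e-20) and 1.80 ± 0.15 in RM (1.10e-20), close to the Zfp36 difference. In RM-HS, Atf3 rose by 1.53 ± 0.18 (limma adjusted p = 5.33e-12) and Jun by 1.49 ± 0.16 (2.37e-14), both stress-induced transcription factors. In RM, Junb rose by 1.68 ± 0.16 (limma adjusted p = 2.07e-17) and Fosl2 by 1.65 ± 0.13 (1.98e-21), both AP-1 subunits. Median differences of the list were 0.63 in RM-HS, 0.76 in RM and 0.08 in HS.

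**Figure D4:**
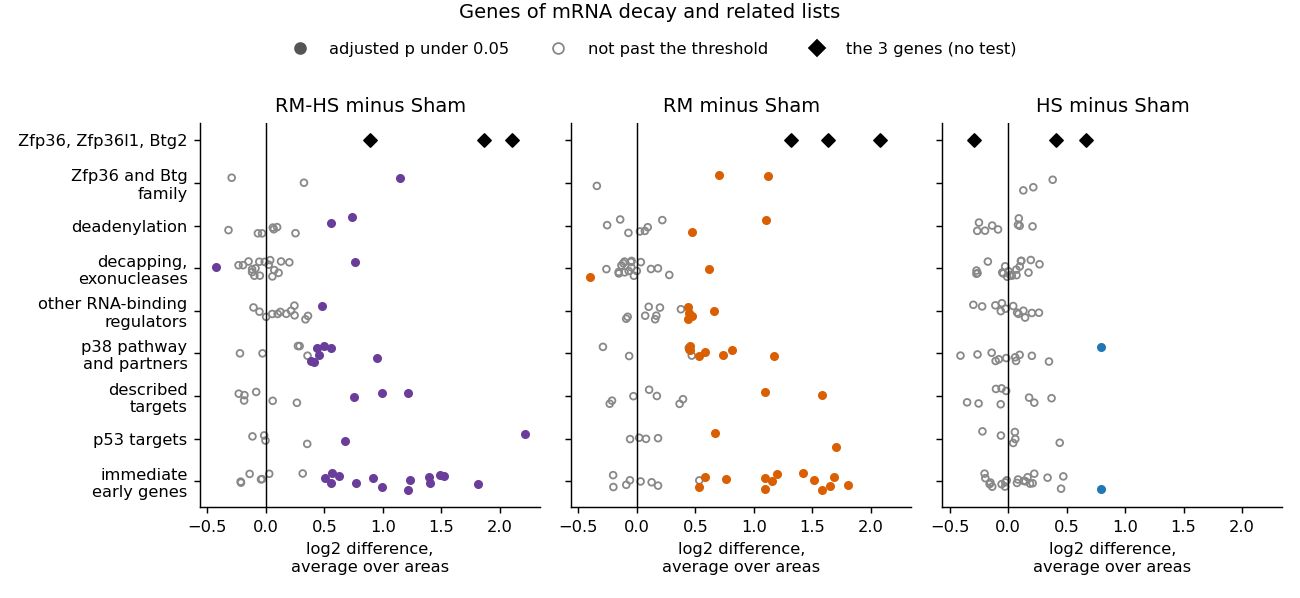
Log2 difference from Sham, averaged over areas, of the genes in 8 lists (rows) and of Zfp36, Zfp36l1 and Btg2 (diamonds, not tested) in RM-HS, RM and HS; filled circles passed an adjusted p of 0.05 and open circles did not. The 3 genes were picked for these differences, so their place beside the lists is no result. In RM-HS and RM, 14 and 13 of 21 immediate early genes are filled there.

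Immune cells can also express the 3 genes, so their markers are given beside them. In an ROI, fewer cells of a type and less RNA per cell cannot be told apart. Of 8 macrophage markers, 5 were measured (Csf1r, C1qa, C1qb, C1qc and Cd74), and their summed signal ranged over ROIs from 174 to 442 in RM-HS, 145 to 432 in RM, 93.1 to 385 in HS and 116 to 326 in Sham. Medians in medulla were 364 in RM-HS, 314 in RM, 263 in HS and 238 in Sham, and at the junction 249, 233, 224 and 218. In cortex they were 288, 286, 237 and 248 in the same order of groups, and in glomeruli 209, 192, 221 and 174. In cortex, few of the 5 markers stood over 2 times the negative-probe value in most ROIs. These were 2 in HS and 1 in each of RM-HS, RM and Sham. The cortex sums thus rest largely on markers near background. In RM-HS, 2 of 5 markers rose (5.99% of all genes rose): Cd74, of antigen presentation, by 0.69 ± 0.20 (limma adjusted p = 0.0165) and the complement gene C1qc by 0.47 ± 0.14 (0.0149). In RM, 1 of 5 rose (7.52% of all genes rose), Cd74, by 0.70 ± 0.20 (limma adjusted p = 0.0104). These 3 calls were each lost without Sham run 1 and without Sham run 2. Cd68, Adgre1 and Lyz2 were not analysed here.

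Of 6 neutrophil markers 1 was measured, S100a9, at 26.4 to 67.9 in RM-HS, 20.5 to 64.3 in RM, 19.4 to 64.8 in HS and 11.6 to 52.4 in Sham. Of 6 lymphocyte markers 1 was measured, Cd3e, at 19.4 to 58.2 in RM-HS, 19.4 to 46.8 in RM, 11.6 to 55.0 in HS and 11.6 to 81.4 in Sham. Neither passed the threshold in any injury. In most combinations of group and area, however, neither gene was over 2 times the negative-probe value in most ROIs. Values this near background cannot show whether neutrophils or lymphocytes changed. Among 3 endothelial markers, Flt1 and Ptprb rose in RM (7.52% of all genes rose), by 0.60 ± 0.14 (limma adjusted p = 0.000644) and 0.42 ± 0.13 (0.0222). The summed signal of the 3 ranged from 122 to 388 in RM-HS, 139 to 349 in RM, 93.1 to 465 in HS and 112 to 218 in Sham. In glomeruli the sum was 280.3 (222 to 388) in RM-HS, 305 (233 to 349) in RM, 252 (93.1 to 465) in HS and 155 (116 to 218) in Sham, so that RM-HS and RM did not overlap Sham. The loop of Henle cotransporter Slc12a1 fell by 0.68 ± 0.19 in RM (limma adjusted p = 0.00711). The sum of 4 loop of Henle markers in medulla was 1210 (1016 to 1361) in RM-HS, 765 (629 to 1097) in RM, 1181 (894 to 1301) in HS and 2233 (1210.4 to 2992) in Sham. At the junction it was 449 (346 to 723) in RM-HS, 405 (323 to 488) in RM, 498 (430 to 1412) in HS and 838 (552 to 965) in Sham. RM lay below every Sham ROI in both of these areas, while RM-HS and HS overlapped Sham. The collecting duct water channel Aqp2 fell by 0.61 ± 0.21 in RM-HS (0.0498) and 0.61 ± 0.20 in RM (0.0430). The proximal tubule transporter Slc3a1 rose by 0.57 ± 0.18 in RM (limma adjusted p = 0.0283), with 0.03 under quantile normalization, and no podocyte marker was called. Of these endothelial and tubular calls, Flt1 was lost without Sham run 1, Slc12a1 without Sham run 2, and Ptprb, both Aqp2 calls and Slc3a1 without either run. Each was also lost without 1 or more injury runs, other than Flt1. The part of these markers in the differences of Zfp36, Zfp36l1 and Btg2 was not tested.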

How the data were processed

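Per the labels, 132 ROIs of rat kidney were profiled with mouse whole-transcriptome GeoMx probes. The deposited values are signal that the authors normalized to the upper quartile, as the shared 75th percentile shows; which software made them is not stated. The submitters' processing notes name the human builds GRCh 38 and hg 38, whose role is not stated. Multiplying an ROI by 1 factor gave whole reads for 100% of values, within 1e-04 reads. Of 9271 gene symbols, 8432 occur in the RefSeq rat table (GRCr8).

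The filter kept 8827 genes whose signal exceeded 2 times that of the negative probe in 10% or more of the ROIs, and left out 444. log2(deposited signal + 1) was fitted in limma 3.58.1 (R 4.3.3, statmod 1.5.0) with 16 means and a plate term, which was past the threshold for 52 genes and none of the 3. Runs of neighbouring wells, read from well names, were a random block (consensus correlation 0.132). A run is not stated to be an animal, and well runs are numbered in well order. Tests are two-sided with Benjamini-Hochberg adjustment. The script was tested on simulated data. Depth limits glomerular values most. The SEs come from scatter between ROIs, pooled over the 16 means, and so can understate the error of glomerular ROIs of low depth.

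The 3 genes and the lists were chosen with earlier results of these data known. Named genes are the 3, the measured family members, up to 3 called genes of each list and injury by size (with none called, the 1 of lowest p), and the 5 most alike by Pearson's r. Genes named from single areas were chosen after their values were seen. Alternatives covered the pseudocount of 5, filters, quantile normalization, background subtraction, edgeR 4.0.16 on recovered reads, plate and run terms, subsets of ROIs and each run left out. Promoters were searched in Python 3.11.15.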

Additional observations from a re-analysis of the deposited data

Results flagged for a closer look

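In HS at the junction, 1 of 9 ROIs, of HS run 2, had a Zfp36 signal of 59.8, far below the nearest of the others at 89.5. It was the single such value among 48 groups of ROIs examined for the 3 genes, where chance alone marks about 5% of groups.

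The RM glomerular ROI on plate A, left out of the fit, had a Zfp36 signal of 110, against 81.4 in the highest Sham glomerular ROI. Its Zfp36l1 signal was 349, below the highest Sham value of 368, and its Btg2 signal was 77.5, within the Sham range of 29.1 to 108.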

How the results depend on the processing

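Of 1080 alternative values of the injury differences of the 3 genes, 1065 kept their sign and 1028 moved by less than the SD between ROIs. Some of these values come from leaving out a well run of a group that is not part of the difference. Such a value could hardly move, so both counts overstate how stable the differences were. Subtracting the negative probe gave Zfp36 2.73 in RM-HS, 2.73 in RM and 0.84 in HS, and Btg2 1.22 in HS. Quantile normalization gave Zfp36l1 0.45 in RM-HS, 0.79 in RM and 0.77 for RM-HS against HS, which was also 0.77 with no plate term. The Zfp36l1 glomerular value in HS (−0.52) turned to 0.32 without the 6 ROIs under 50000 reads and ranged from −1.15 to 0.000217 with 1 run left out (0.000217 without HS run 2). Cd3e in HS (0.13) ranged from −0.54, without Sham run 3, to 0.36. With 1 well run left out in turn, Zfp36l1 in HS ranged from −0.56 to 0.12 and RM-HS against HS from 0.77 to 1.46. In Sham, the Zfp36l1 junction difference (0.34) passed without ROIs under 50000 reads, and the glomerular difference (0.59) missed the threshold with run means. The cause of these shifts was not tested.

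Genes called in RM-HS numbered 603 (529 higher and 74 lower), 1346 with quantile normalization (814 and 532), 507 higher and 165 lower with the negative probe subtracted, 2472 with edgeR (1378 and 1094), 1984 with no run block, 1787 on plate C alone, 1298 with areas fitted alone, 290 with run means and 193 to 1553 with 1 run left out. In RM they numbered 733 (664 and 69), 1530 (966 and 564) with quantile normalization, 3574 (1791 and 1783) with edgeR, 2967 with no block, 2548 on plate C, 1889 by area, 426 with run means and 294 to 2232 with 1 run left out. In HS they numbered 15 (11 and 4), 27 (15 and 12) with quantile normalization, 66 (58 and 8) with the negative probe subtracted, 122 with edgeR, 320 with no plate term, 445 with no block, 0 on plate E, 122 by area, 2 with run means, 24 without ROIs under 50000 reads and 12 to 1017 with 1 run left out. The lowest counts of RM-HS and RM came without Sham run 1 and the highest without HS run 3, and the highest of HS without Sham run 3.

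Within Sham, junction against cortex gave 698 calls (613 and 85), 1168 (733 and 435) with quantile normalization, 1328 (885 and 443) with edgeR and 260 with run means. Glomeruli gave 3388 (245 and 3143), 1734 with the 50% filter, 2017 (971 and 1046) with quantile normalization, 2080 (438 and 1642) with the negative probe subtracted, 381 (272 and 109) with edgeR and 1505 with run means. Medulla gave 1030 (564 and 466), 1588 with quantile normalization, 1335 higher and 115 lower with the negative probe subtracted, 2346 with edgeR, 257 with run means and 535 to 1224 with 1 run left out. Of the decay genes, 6 were called in RM-HS, 14 with edgeR, 13 with no block, 13 on plate C, 10 by area and 2 to 11 with 1 run left out. In RM 11 were called, 20 with edgeR, 17 with no block, 5 with run means and 3 to 14 with 1 run left out. In HS 0 were called, 2 with no plate term and 0 to 4 with 1 run left out. Of 46 calls of list genes named by the rule for that injury, 22 held under all 24 alternatives and 22 were lost without Sham run 1. Calls given beside them for the other injury are not counted there.

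No paired analysis was possible because the labels give no replicate numbers that groups share. Areas of a group were tied through the well run as a random block. Areas of Sham were not fitted alone. Without Sham run 3 the plate term could not be fitted. HS is told apart from its plate by 12 Sham ROIs, and glomerular values are limited by depth.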
